A study of Homo sapiens with 9 samples.

Results

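LN229 is an established human glioblastoma cell line, and 42 of its genes are described here: those of glycolysis, the breakdown of glucose to pyruvate and lactate, and those of the response to low oxygen that is driven by the hypoxia-inducible factors (HIF). They were picked by symbol from the 23727 genes of the deposited count table, and all 42 were found there. The glycolytic side held 25 genes, of which 19 encode glucose carriers and enzymes of the pathway and 6 encode kinases that set its pace. The HIF side held 17 genes, of which 4 encode HIF subunits and the hydroxylases that mark them, and 13 are HIF targets outside glycolysis. After the filter on low counts, 41 of the 42 were tested among 15273 genes, and CA9 was not. RNA was sequenced in 3 groups of 3 libraries: untreated cells at 0 h, cells with 500 µM sodium formate for 8 h, and cells with the same dose for 24 h. All groups shared a medium with 17 mM of glucose, glutamine at 2 mM and fetal bovine serum at 10%, and no group is labelled as kept in low oxygen. Since every untreated library was taken at 0 h, formate and time in culture cannot be told apart. The labels do not say that the libraries came from separate cultures, so p-values measure only the spread between these libraries, which may be technical.

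Glucose enters the cell through SLC2A carriers and is trapped by hexokinase, committed by phosphofructokinase, split by aldolase and carried on to pyruvate, which lactate dehydrogenase turns into lactate or mitochondria oxidise. In oxygen, EGLN hydroxylases mark the HIF alpha subunits for destruction. When oxygen is short the subunits persist and switch on most glycolytic genes together with genes of vessel growth, pH control, mitophagy and collagen maturation, and glioblastomas are known for strong glycolysis and for hypoxic zones in which these genes are high. HIF1A protein is set largely by its breakdown, so its mRNA alone does not report HIF activity.

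The libraries held 22222298 to 25848242 counts, and 3 counts, taken as the floor, correspond to 0.116 to 0.135 CPM. CPM are counts per 1000000 of the library's total after scaling with edgeR's TMM factors. Replicate 1 lay apart from replicates 2 and 3: among the untreated libraries the chi-square per degree of freedom over genes was 57.6 and 60.5 for the pairs with replicate 1 and 8.62 for the other pair. It was the library farthest from the other two for 27 of the 41 tested genes at 0 h (65.9%, against 64.1% of all tested genes), so the 24 h results are given below also without the 3 libraries numbered 1. Of the glial and neural stem markers, VIM (4326 CPM on average) and NES (951 CPM) were present, whereas the astrocyte filament gene GFAP had at most 10 counts in a library. S100B, a glial calcium-binding protein gene, was at 84.4, 177 and 129 CPM at 0 h and higher in every 24 h library, at 288, 335 and 395 CPM, and so was the neuron marker SNAP25, at 7.40, 13.7 and 12.3 CPM against 20.7, 24.7 and 25.9 CPM. VIM went the other way, from 6279, 4257 and 4161 CPM at 0 h to 3922, 3536 and 3196 CPM at 24 h. The glial marker CD44 and the neuron marker GAP43 were also lower in every 24 h library than at 0 h. Of 9 tested glial and neural stem markers, 3 lay higher at 24 h without overlap and 3 lower. Of 5 tested neuron markers, 2 lay higher and 1 lower. The 4 leukocyte and microglia markers in the table stayed under 1 CPM. Of 5 epithelial markers, EPCAM, CDH1 and KRT19 had at most 3 counts in a library, while KRT18 (89.3 to 184 CPM) and KRT8 (13.5 to 23 CPM) were present, and their summed CPM ran from 140 to 203 at 0 h, from 142 to 154 at 8 h and from 109 to 126 at 24 h. The lower sum at 24 h is that of KRT18 (log2 change from 0 h -0.57). The KRT8 libraries of 24 h and 0 h overlapped, with a log2 change of 0.15. Summed CPM of 3 endothelial markers, mostly VWF, ran from 0.423 to 0.707 at 0 h and from 1.16 to 1.86 at 24 h, and of 6 fibroblast or pericyte markers, mostly LUM, from 43.1 to 60.8 and from 67.9 to 90.2. The other endothelial markers, PECAM1 and KDR, had at most 3 and 4 counts in a library, so the endothelial sum describes VWF alone. Of the 6 fibroblast or pericyte markers, 3 lay higher at 24 h without overlap and 1, COL1A1, lower. A list of 15 G2 and mitosis genes summed to 6826 to 7650 CPM at 0 h, 6637 to 7976 CPM at 8 h and 4033 to 5976 CPM at 24 h, with 9 of 15 genes lower at 24 h by the test and none higher. Mitochondrially encoded genes took 1.06% ± 0.282, 1.08% ± 0.354 and 1.68% ± 0.128 of the counts (mean ± SD, n = 3) at 0, 8 and 24 h. These glial and neuron markers, in both directions, and the epithelial, endothelial, fibroblast, mitotic and mitochondrial sums move with the 24 h group. Within the epithelial and fibroblast sums, KRT8 and COL1A1 do not follow the sum. The part of these markers and sums in the results was not tested. In bulk RNA, fewer cells of a kind and less RNA per cell cannot be told apart.

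HIF binds the short core ACGTG or GCGTG, and 5 stretches upstream of annotated starts show the range of core numbers among these genes, from none to 6. They come from RefSeq on GRCh38.p14, written 5′ to 3′ on the gene's own strand in lower case with every core, on either strand, in capitals, and annotated exons are left out. HK2 holds 6 cores, VLDLR 5, TPI1 2, EPAS1 a single one and PFKP none.
HK2 (chr2:74834920-74835169, + strand): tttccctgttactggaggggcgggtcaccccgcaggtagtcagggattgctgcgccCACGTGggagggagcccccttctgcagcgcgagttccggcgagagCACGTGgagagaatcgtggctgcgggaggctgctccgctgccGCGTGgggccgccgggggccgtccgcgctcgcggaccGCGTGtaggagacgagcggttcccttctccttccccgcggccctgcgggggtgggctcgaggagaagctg
VLDLR (chr9:2621537-2621786, + strand): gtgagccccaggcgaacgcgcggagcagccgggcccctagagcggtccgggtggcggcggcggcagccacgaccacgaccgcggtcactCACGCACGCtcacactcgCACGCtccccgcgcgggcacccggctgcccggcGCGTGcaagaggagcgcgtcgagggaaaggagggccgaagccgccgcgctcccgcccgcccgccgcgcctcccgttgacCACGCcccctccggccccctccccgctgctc
EPAS1 (chr2:46297157-46297401, + strand): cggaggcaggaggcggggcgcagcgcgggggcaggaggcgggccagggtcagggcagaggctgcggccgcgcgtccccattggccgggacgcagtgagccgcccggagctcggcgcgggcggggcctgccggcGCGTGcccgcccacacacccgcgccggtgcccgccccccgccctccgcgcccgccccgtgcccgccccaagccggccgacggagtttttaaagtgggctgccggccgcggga
PFKP (chr10:3068377-3068626, + strand): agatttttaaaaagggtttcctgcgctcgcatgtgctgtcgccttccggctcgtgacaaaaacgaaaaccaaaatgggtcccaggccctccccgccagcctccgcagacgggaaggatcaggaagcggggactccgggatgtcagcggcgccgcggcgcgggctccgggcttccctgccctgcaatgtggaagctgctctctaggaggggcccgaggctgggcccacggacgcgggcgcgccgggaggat
TPI1 (chr12:6867855-6868099, + strand): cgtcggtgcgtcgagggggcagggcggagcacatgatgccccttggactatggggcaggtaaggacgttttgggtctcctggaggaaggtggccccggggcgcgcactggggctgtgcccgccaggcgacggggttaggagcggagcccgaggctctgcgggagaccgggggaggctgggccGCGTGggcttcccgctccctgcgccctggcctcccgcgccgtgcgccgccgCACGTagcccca
In the palindrome CACGTG of HK2 each strand carries a core, so its 2 copies count as 4 of the 6 cores in the window. These stretches were chosen with the expression results known, and HK2, PFKP and TPI1 have other annotated starts whose windows differ in the number of cores. Windows rich in cores also belong to genes with small changes at 24 h: BNIP3 and LDHA have a window with 6 cores each and PGK1 one with 4, at log2 changes of 0.01, -0.11 and -0.16. No relation between cores and changes was tested. RefSeq promoter windows, 250 bases before to 50 after a start, were counted for 37 of the 42 genes, 63 windows in all. No window of BNIP3L, NDRG1, SLC2A3, VEGFA or HILPDA was counted, which does not show that these genes have none. Cores stood in 42 of the 63 windows (66.7%), in 30 of 48 glycolytic and 12 of 15 HIF windows, against 17012 of all 35116 windows of the same length (48.4%). The set of all windows was not cut in the same way as that of these genes, so the shares are not compared like for like. A match is a description of the letters, not of binding.

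The main comparison was 24 h of formate against 0 h. The glucose carrier gene SLC2A1 fell, while HK2, which encodes a hexokinase, and PDK1, whose product inhibits pyruvate dehydrogenase, rose. In edgeR's quasi-likelihood test, with p-values adjusted by Benjamini and Hochberg's method over all tested genes, 3 of the 41 genes had an adjusted p under 0.05 (7.32%, 2 higher and 1 lower), beside 4.25% of all tested genes (2.47% higher and 1.77% lower). All 3 were glycolytic, 3 of 25, and none of the 16 HIF genes passed, with 7 of them at an unadjusted p under 0.05 (43.8%, beside 26.4% of all tested genes). DESeq2 called 13 of the 41, 8 glycolytic (32%) and 5 HIF genes (31.2%), beside 10.9% of all genes to which it gave an adjusted p. When the replicate number was fitted as a block, which removes what same-numbered libraries share, 19 of the 41 passed (46.3%, 12 higher and 7 lower), beside 24.1% of all tested genes (12.6% higher and 11.6% lower). The 19 were 12 of 25 glycolytic genes, 7 higher and 5 lower, and 7 of 16 HIF genes, 5 higher and 2 lower, and they held all 3 genes called without the block. Without the libraries numbered 1 and with no block, 15 passed, of which 14 were among the 19 and PFKL was the other, and the share of all tested genes was 16.9% there. The counts without the block rest on single libraries. When replicate 2 or 3 of 24 h was left out, no gene of the whole table passed. When untreated replicate 1 was left out, none of the 41 passed, beside 2.28% of all tested genes. The count was 4 when untreated replicate 2 or 3 was left out (3.68% and 2.68% of all tested genes) and 1 when replicate 2 or 3 of the 8 h group was (2.85% and 1.82%). It was 8 when replicate 1 of that group was left out (4.90%) and 6 when the first 24 h library was (5.76%). The libraries of 24 h and 0 h did not overlap for 21 of the 41 genes, 15 higher and 6 lower, beside 30.2% of all tested genes (15.8% higher and 14.4% lower). The median log2 change was -0.02 over the glycolytic genes and 0.15 over the HIF genes, beside 0.01 over all tested genes.

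**Figure D1:**
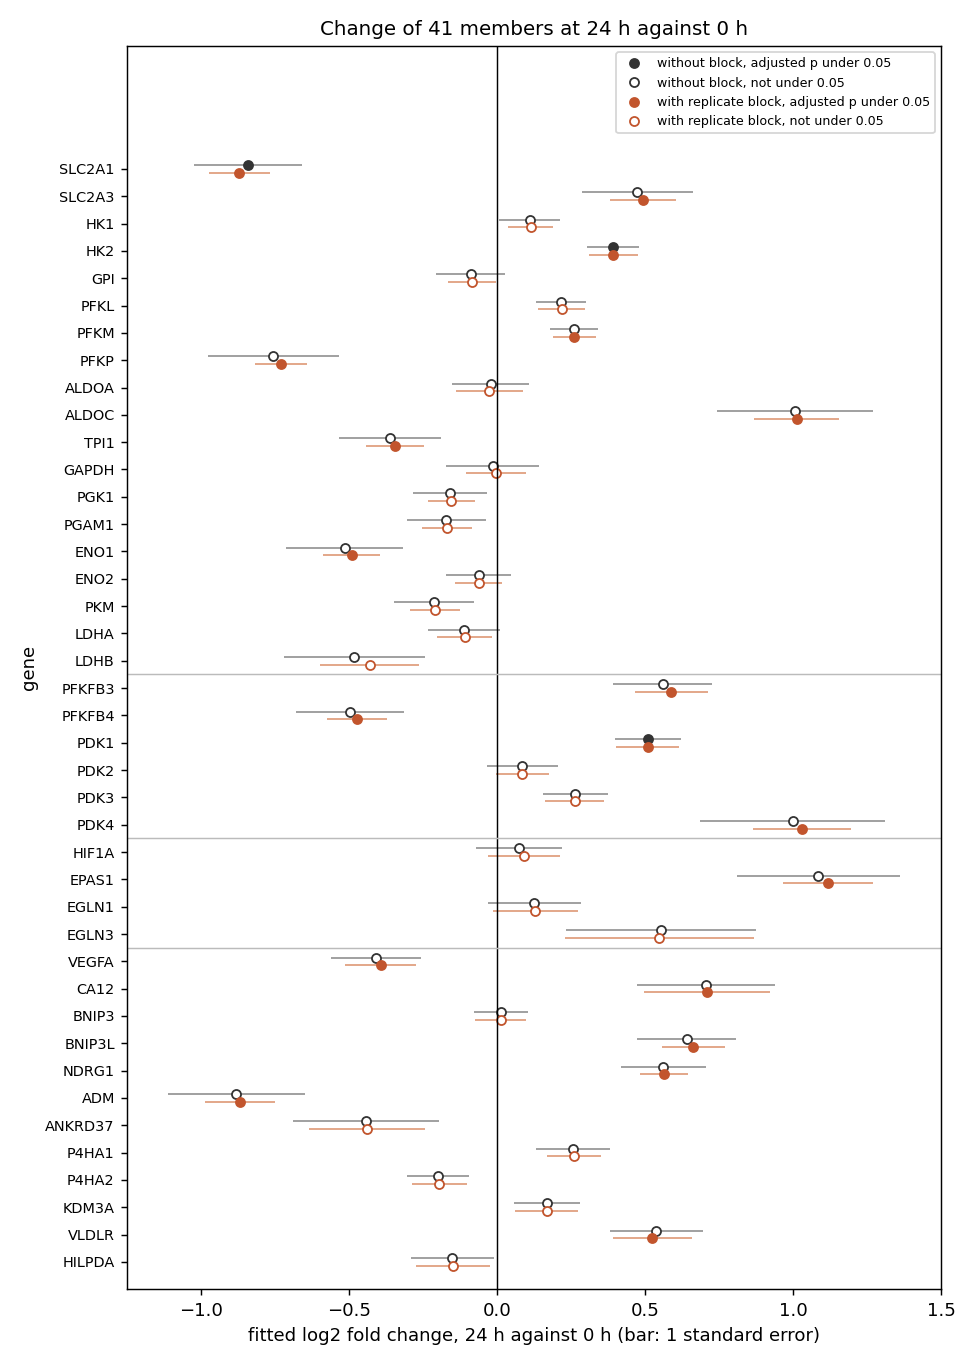
Fitted log2 fold change at 24 h against 0 h for the 41 tested genes (x axis) with 1 standard error, without (grey) and with (orange) the replicate block; filled points have an adjusted p under 0.05. Horizontal lines part carriers and enzymes, regulators, HIF subunits and hydroxylases, and HIF targets. SLC2A1 and ADM lie farthest to the left and ALDOC, PDK4 and EPAS1 farthest to the right, and the bars are shorter with the block for most genes.

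SLC2A1 (ENSG00000117394, chromosome 1, 42925375 to 42959176, minus strand) encodes GLUT1, the main carrier of basal glucose uptake. It stood at 280, 243 and 232 CPM at 0 h, at 299, 259 and 236 CPM at 8 h and at 186, 128 and 107 CPM at 24 h (replicates 1, 2 and 3). All 3 libraries of 24 h lay below the other 6. The log2 change from 0 h was -0.84 ± 0.18 (fitted value ± SE), with an adjusted p of 0.0316, and -0.87 ± 0.10 with an adjusted p of 0.000294 with the block. Without the libraries numbered 1 it was -1.02 (adjusted p 0.000343), and leaving out untreated replicate 1 or either of replicates 2 and 3 of 24 h ended the call, at an adjusted p of at most 0.145. SLC2A3, which encodes the high-affinity carrier GLUT3, ran the other way at a far lower level. Its 0 h values were 10.8, 15.6 and 16.8 CPM, those of 8 h 10.6, 14.2 and 16.5 CPM, and those of 24 h 18.8, 19.4 and 22.1 CPM. Its log2 change of 0.47 ± 0.19 missed the threshold (adjusted p 0.146) and passed with the block (0.49 ± 0.11, adjusted p 0.0102), though not without the libraries numbered 1 (0.35, adjusted p 0.0623).

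Hexokinases phosphorylate glucose on entry, and HK2 is a form that tumours often raise. HK2 (ENSG00000159399, chromosome 2, 74833981 to 74893359, plus strand) measured 55.0, 57.2 and 59.8 CPM at 0 h, 61.5, 56.2 and 57.1 CPM at 8 h and 71.3, 74.9 and 79.5 CPM at 24 h. The 24 h libraries were the 3 highest, with a log2 change of 0.39 ± 0.09 (adjusted p 0.0352, and 0.00666 with the block). Without the libraries numbered 1 it was 0.40 (adjusted p 0.00476), but of the 9 fits without the block that each left out 1 library only 2 kept the call, with an adjusted p of up to 0.173. HK1, the constitutive form, stood at 222, 194 and 183 CPM at 0 h, at 218, 200 and 195 CPM at 8 h and at 226, 215 and 206 CPM at 24 h, and these overlap (log2 change 0.11 ± 0.10, adjusted p 0.511). GPI, which turns glucose phosphate into fructose phosphate, had a log2 change of -0.09 ± 0.12.

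Phosphofructokinase, the committing step, is built from 3 kinds of subunit, and these did not move together. PFKP, the platelet-type subunit, measured 404, 244 and 253 CPM at 0 h, 397, 264 and 262 CPM at 8 h and 213, 168 and 153 CPM at 24 h. The 24 h libraries were the 3 lowest, and replicate 1 was the highest of each group. The log2 change was -0.76 ± 0.22 without the block (adjusted p 0.072), -0.73 ± 0.09 with it (adjusted p 0.000316) and -0.63 without the libraries numbered 1 (adjusted p 0.000734). PFKM, the muscle-type subunit, had 115, 119 and 113 CPM at 0 h, 109, 114 and 109 CPM at 8 h and 135, 139 and 141 CPM at 24 h. Its spread was the narrowest of the family and the 24 h libraries did not overlap the rest. The log2 change was 0.26 ± 0.08 (adjusted p 0.085, 0.0255 with the block and 0.0225 without the libraries numbered 1), and 7 of the 9 blocked fits that left out a library lost it. PFKL, the liver-type subunit, stood at 107, 107 and 101 CPM at 0 h, at 99.8, 109 and 102 CPM at 8 h and at 120, 119 and 127 CPM at 24 h, where it was higher than in all the others (log2 change 0.22 ± 0.08), and passed neither without (adjusted p 0.141) nor with the block (adjusted p 0.064). On the opposite strand SENP1 overlaps 8.58% of the PFKM exons, and the strand setting of the counts is not given in the sources used here.

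**Figure D2:**
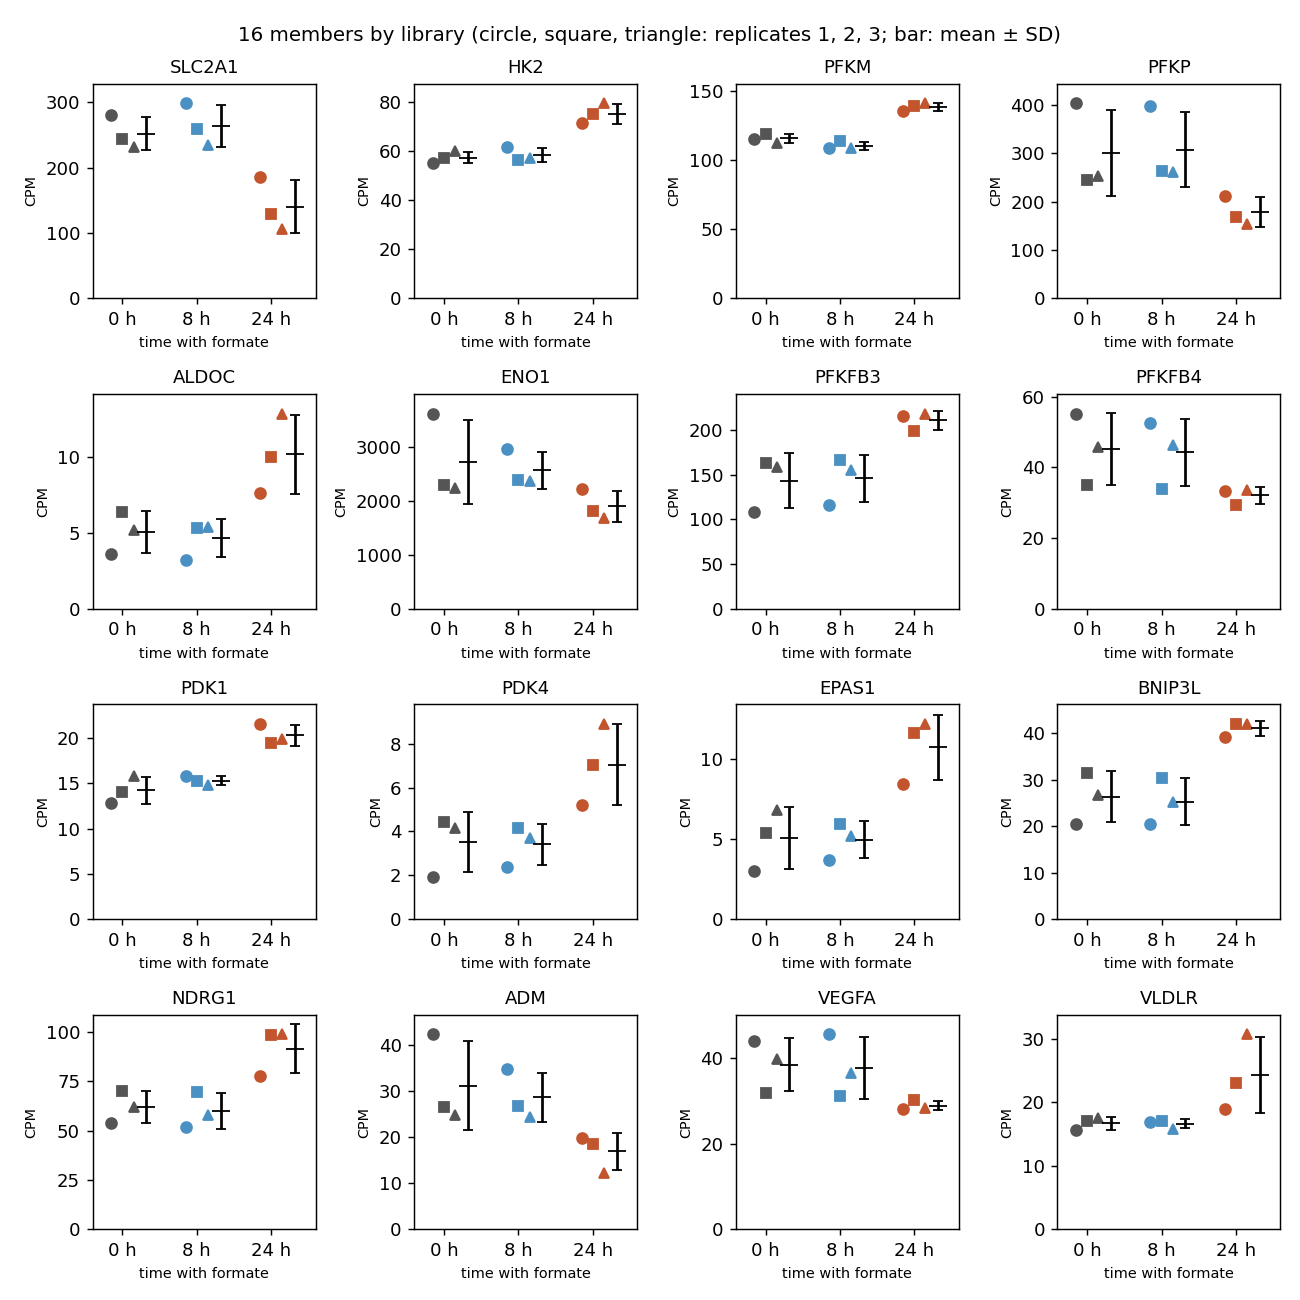
Level in CPM (linear axes from 0) of 16 genes in each of the 9 libraries, by hours of formate; circles, squares and triangles are replicates 1, 2 and 3, and the bar is the mean ± SD of 3 libraries. The 0 h and 8 h points lie side by side in each panel, while SLC2A1 is lower and HK2 higher in all 3 libraries of 24 h.

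Aldolases split fructose bisphosphate into the 2 triose phosphates. ALDOC, the brain-type aldolase, had 3.58, 6.35 and 5.17 CPM at 0 h, 3.22, 5.33 and 5.40 CPM at 8 h and 7.61, 10.0 and 12.8 CPM at 24 h. It was higher in all 3 libraries of 24 h, with a log2 change of 1.01 ± 0.26 that missed the threshold without the block (adjusted p 0.0543) and passed with it (1.01 ± 0.15, adjusted p 0.000846) and without the libraries numbered 1 (0.99, adjusted p 0.00367). ALDOA, the ubiquitous form, was listed at only 10.8, 10.1 and 11.1 CPM at 0 h, 13, 12.4 and 12.3 CPM at 8 h and 10.6, 9.01 and 11.9 CPM at 24 h. Both values are uncertain: a gene on the same strand covers 42.3% of the annotated ALDOA exons and received 17.6% as many counts, and opposite-strand genes cover 13.3% of ALDOA and 10.1% of ALDOC.

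Below the split, all 9 enzymes had fitted changes under 0 at 24 h, from -0.02 for GAPDH (0.07 without the libraries numbered 1) to -0.52 for ENO1, most of them within the spread. Of TPI1, GAPDH, PGK1, PGAM1, ENO1, ENO2, PKM, LDHA and LDHB, none passed without the block by edgeR or DESeq2 and ENO1 alone had an unadjusted p under 0.05 by edgeR, and TPI1 and ENO1 passed with it, both lower. ENO1 (ENSG00000074800), the main enolase, measured 3616, 2284 and 2242 CPM at 0 h, 2953, 2377 and 2356 CPM at 8 h and 2219, 1802 and 1675 CPM at 24 h. The highest of 24 h lay just under the lowest of 0 h, and the 0 h spread comes mostly from replicate 1. Its log2 change was -0.52 ± 0.20 (adjusted p 0.138), -0.49 ± 0.10 with the block (adjusted p 0.0045) and -0.38 without the libraries numbered 1 (adjusted p 0.0121). TPI1, triose phosphate isomerase, had 1348, 923 and 860 CPM at 0 h, 1030, 924 and 892 CPM at 8 h and 940, 735 and 761 CPM at 24 h. Replicate 1 of 24 h overlaps the 0 h libraries here. The change was -0.36 ± 0.17 (adjusted p 0.206), -0.34 ± 0.10 with the block (adjusted p 0.0261) and -0.25 without the libraries numbered 1 (adjusted p 0.0551), and 3 of the 9 blocked fits that left out a library lost the call.

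GAPDH, the oxidising step and a common reference gene, was the most abundant of the 42 at 9484, 7570 and 6635 CPM at 0 h and 8490, 7426 and 7509 CPM at 24 h, with a log2 change of -0.02 ± 0.16. The ATP-yielding enzymes PGK1 and PKM had log2 changes of -0.16 ± 0.13 and -0.21 ± 0.14, and the mutase PGAM1 one of -0.17 ± 0.13. ENO2, the neuronal enolase, had 39.0, 33.4 and 32.9 CPM at 0 h, 36.3, 31.6 and 32.7 CPM at 8 h and 36.7, 31.7 and 32.3 CPM at 24 h, and these overlap (log2 change -0.06 ± 0.11). LDHA, which makes lactate, measured 1911, 1702 and 1570 CPM at 0 h, 1549, 1719 and 1625 CPM at 8 h and 1746, 1508 and 1543 CPM at 24 h, so the groups overlap (log2 change -0.11 ± 0.12, adjusted p 0.573). LDHB, the isoform that favours lactate oxidation, had 84.1, 43.3 and 39.4 CPM at 0 h, 42.1, 39.9 and 38.7 CPM at 8 h and 45.5, 33.4 and 40.2 CPM at 24 h, so untreated replicate 1 stood alone. Its log2 change of -0.48 ± 0.24 became -0.17 without the libraries numbered 1. A same-strand gene covers 33.4% of the LDHB exons, so its count is uncertain. GAPDH and PGAM1 have 62 and 13 annotated pseudogene copies, and the 21 and 2 of these in the table held 0.201% and 1.5% as many counts as the gene itself. How reads shared with such copies were assigned is not given in the sources used here. Together the 19 carriers and enzymes took 2.17%, 1.87% and 1.74% of all counts at 0 h, 1.85%, 1.89% and 1.77% at 8 h and 1.93%, 1.76% and 1.77% at 24 h, which overlap.

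**Figure D3:**
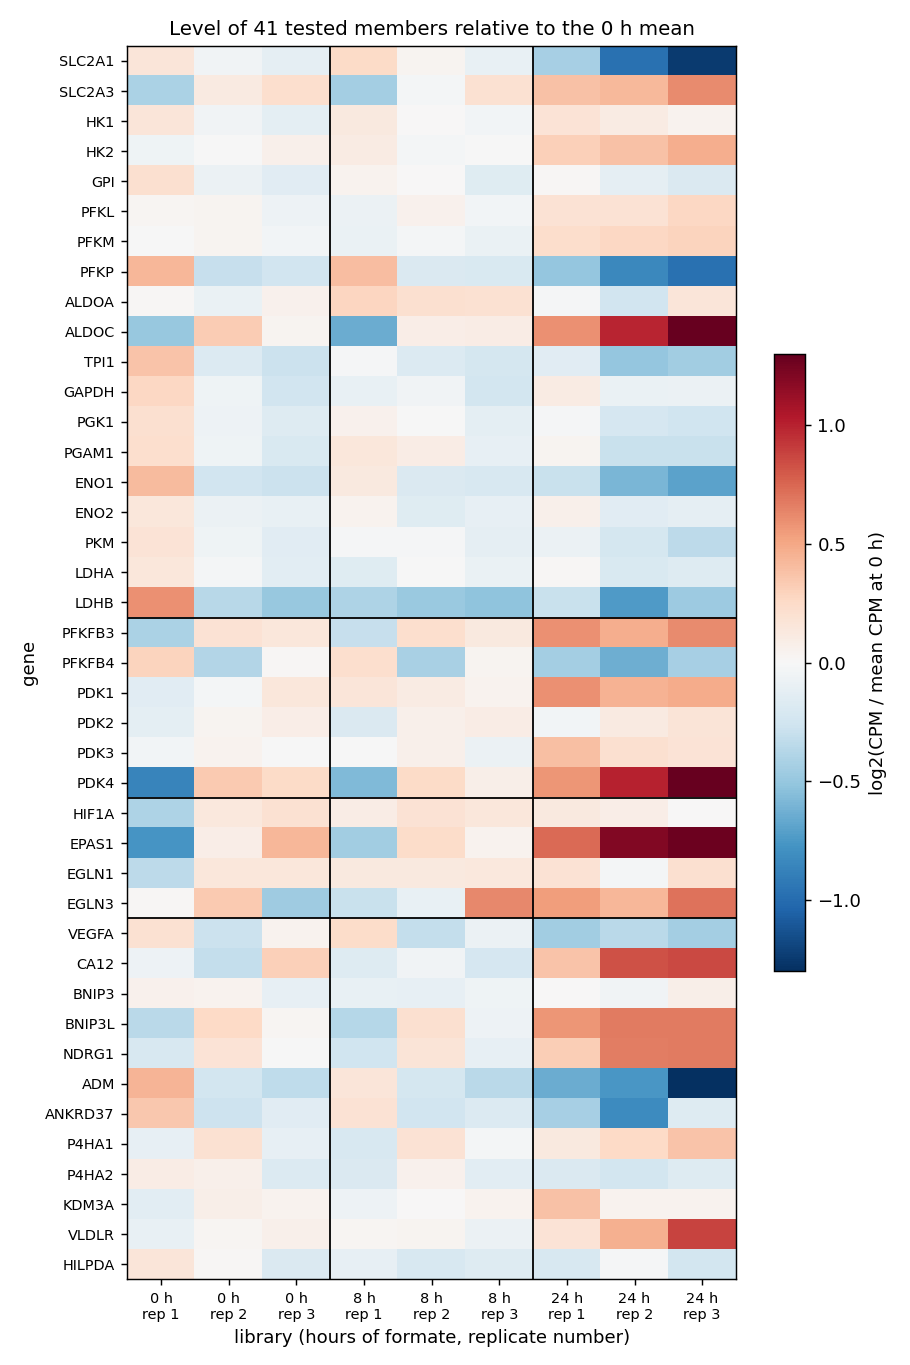
Log2 of CPM over the 0 h mean for the 41 tested genes (rows) in the 9 libraries (columns); red is above and blue below the 0 h mean, the colour scale saturates at its ends, and lines part the gene groups and the times. The 3 columns of 24 h differ from the first 6 in both directions, and untreated replicate 1 differs from its group for many genes, LDHB (84.1 CPM) among them.

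Among the kinases that steer the pathway, 4 of 6 passed with the block and 1 without it, beside 24.1% and 4.25% of all tested genes. PFKFB3 and PFKFB4 set the level of the fructose bisphosphate that activates phosphofructokinase, and they moved in opposite directions. PFKFB3 had 108, 163 and 158 CPM at 0 h, 116, 166 and 156 CPM at 8 h and 216, 198 and 218 CPM at 24 h, a log2 change of 0.56 ± 0.17 (adjusted p 0.0768, and 0.00653 with the block). PFKFB4 had 55.3, 34.9 and 45.7 CPM at 0 h, 52.5, 33.8 and 46.4 CPM at 8 h and 33.3, 29.3 and 33.6 CPM at 24 h, a log2 change of -0.50 ± 0.18 (adjusted p 0.125, and 0.00737 with the block). Neither overlapped between 0 h and 24 h. Without the libraries numbered 1, PFKFB3 passed (0.38, adjusted p 0.00883) and PFKFB4 did not (-0.35, adjusted p 0.159).

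The PDK kinases inhibit pyruvate dehydrogenase and so keep pyruvate out of the mitochondrial cycle. PDK1 (ENSG00000152256, chromosome 2, 172555373 to 172608669, plus strand), the HIF-driven member, measured 12.9, 14.0 and 15.8 CPM at 0 h, 15.8, 15.3 and 14.8 CPM at 8 h and 21.6, 19.4 and 19.8 CPM at 24 h. The 24 h libraries were the 3 highest, and the log2 change of 0.51 ± 0.11 passed without the block (adjusted p 0.0334), with it (adjusted p 0.00641) and without the libraries numbered 1 (0.40, adjusted p 0.0253). Only 2 of the 9 fits without the block that left out a library kept it, with an adjusted p of up to 0.143. PDK4, the member raised by fasting and fatty acids, had 1.93, 4.42 and 4.16 CPM at 0 h, 2.36, 4.15 and 3.70 CPM at 8 h and 5.20, 7.03 and 8.90 CPM at 24 h. Every 24 h library lay above the other 6, with a log2 change of 1.0 ± 0.31 (adjusted p 0.0854, 0.00156 with the block and 0.00683 without the libraries numbered 1). PDK2 had 15.0, 16.7 and 17.3 CPM at 0 h, 14.3, 17.1 and 17.4 CPM at 8 h and 15.9, 17.7 and 18.3 CPM at 24 h, with overlap (log2 change 0.08 ± 0.12). PDK3 had 13.2, 14.0 and 13.5 CPM at 0 h, 13.5, 14.2 and 12.9 CPM at 8 h and 17.8, 15.7 and 15.3 CPM at 24 h, where all 3 libraries were above the rest (0.26 ± 0.11). Neither passed in either fit.

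On the HIF side stand first the alpha subunits. HIF1A, the oxygen-regulated subunit behind most glycolytic targets, stood at 362, 527 and 549 CPM at 0 h, 512, 544 and 529 CPM at 8 h and 523, 508 and 482 CPM at 24 h. Apart from untreated replicate 1 these values lie within a narrow band, and the log2 change at 24 h was 0.07 ± 0.14 (adjusted p 0.77), and -0.12 without the libraries numbered 1. EPAS1 (ENSG00000116016, chromosome 2, 46293667 to 46386703, plus strand), which encodes HIF-2 alpha, had 2.97, 5.35 and 6.81 CPM at 0 h, 3.67, 5.94 and 5.19 CPM at 8 h and 8.41, 11.6 and 12.2 CPM at 24 h. Every 24 h library lay above the other 6. The log2 change of 1.08 ± 0.28 missed the threshold narrowly without the block (adjusted p 0.0508) and passed with it (1.12 ± 0.15, adjusted p 0.000637) and without the libraries numbered 1 (0.97, adjusted p 0.00266). The hydroxylase gene EGLN1 had 5.84, 8.20 and 8.22 CPM at 0 h, 8.08, 8.13 and 8.16 CPM at 8 h and 8.45, 7.28 and 8.57 CPM at 24 h, with overlap (0.12 ± 0.16). EGLN3 had 0.612, 0.769 and 0.442 CPM at 0 h, 0.499, 0.568 and 0.935 CPM at 8 h and 0.887, 0.819 and 0.994 CPM at 24 h, above 0 h but not above 8 h (0.55 ± 0.32). Neither passed in either fit.

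Of the 12 tested HIF targets outside glycolysis, 6 passed with the block (50%, 4 higher and 2 lower, beside 24.1% of all tested genes) and none without it. Without it 6 had an unadjusted p under 0.05 (50%, beside 26.4% of all tested genes), and DESeq2 called 4 (33.3%, beside 10.9%). The mitophagy receptor BNIP3L measured 20.5, 31.5 and 26.8 CPM at 0 h, 20.4, 30.4 and 25.1 CPM at 8 h and 39.1, 41.9 and 42 CPM at 24 h. NDRG1, a stress-induced gene, had 53.8, 70.2 and 62.0 CPM at 0 h, 51.9, 69.7 and 57.8 CPM at 8 h and 77.4, 98.4 and 98.8 CPM at 24 h. For both genes the 24 h libraries were the 3 highest, and replicate 1 was the lowest of each group. Their log2 changes were 0.64 ± 0.17 for BNIP3L (adjusted p 0.0535, and 0.00154 with the block) and 0.56 ± 0.14 for NDRG1 (adjusted p 0.0506, and 0.000869 with the block). Both also passed without the libraries numbered 1, at 0.52 (adjusted p 0.00942) and 0.58 (adjusted p 0.00351).

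VLDLR, a lipoprotein receptor, had 15.6, 17.0 and 17.6 CPM at 0 h, 17.0, 17.1 and 15.8 CPM at 8 h and 19.0, 23.1 and 30.7 CPM at 24 h. The spread at 24 h was wider than the gap of the lowest library from 0 h, and the log2 change was 0.54 ± 0.16 (adjusted p 0.07, 0.0157 with the block and 0.00883 without the libraries numbered 1). CA12, a membrane carbonic anhydrase of pH control, had 1.46, 1.23 and 1.90 CPM at 0 h, 1.36, 1.49 and 1.32 CPM at 8 h and 1.99, 2.72 and 2.77 CPM at 24 h. The change was 0.71 ± 0.23 (adjusted p 0.0964, 0.0328 with the block and 0.0556 without the libraries numbered 1), and 4 of the 9 blocked fits that left out a library lost it. CA9, the carbonic anhydrase best known as a hypoxia marker, had 10 counts over all 9 libraries, with 0, 5 and 1 at 0 h, 0, 0 and 1 at 8 h and 0, 1 and 2 at 24 h. It was thus at or near the floor of 3 counts throughout, and 38.5% of its exons are overlapped on the opposite strand by ARHGEF39.

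The 2 targets that were lower encode secreted vessel-active peptides. ADM, adrenomedullin, had 42.4, 26.6 and 24.8 CPM at 0 h, 34.8, 26.7 and 24.5 CPM at 8 h and 19.9, 18.5 and 12.3 CPM at 24 h. VEGFA, the main vessel growth factor, had 43.9, 31.7 and 39.7 CPM at 0 h, 45.5, 31.0 and 36.3 CPM at 8 h and 28.1, 30.2 and 28.4 CPM at 24 h. The 24 h libraries lay below all the others for both genes, by little for VEGFA. ADM changed by -0.88 ± 0.23 (adjusted p 0.0543, 0.000622 with the block and 0.0107 without the libraries numbered 1). VEGFA changed by -0.41 ± 0.15 (adjusted p 0.127, and 0.0348 with the block), lost the call in 4 of the 9 blocked fits that left out a library, and stood at -0.28 without the libraries numbered 1 (adjusted p 0.135).

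The other 6 tested targets passed in neither fit. The mitophagy receptor BNIP3 was nearly level, between 32.4 and 36.7 CPM in all 9 libraries (log2 change 0.01 ± 0.09). BNIP3 has 39 annotated pseudogene copies, and the 2 of them in the table held 1.15% as many counts. The collagen prolyl hydroxylase gene P4HA1 had 74.0, 91.3 and 74.2 CPM at 0 h, 69.3, 90.7 and 78.4 CPM at 8 h and 87.4, 95.5 and 103 CPM at 24 h (0.25 ± 0.12). P4HA2, its relative, had 132, 129 and 108 CPM at 0 h, 108, 128 and 112 CPM at 8 h and 108, 104 and 109 CPM at 24 h (-0.20 ± 0.10), and for both the 24 h libraries overlap those of 0 h. The histone demethylase KDM3A had a change of 0.17 ± 0.11 and the lipid droplet protein gene HILPDA one of -0.15 ± 0.14. ANKRD37, at 1.55 to 3.49 CPM, had a change of -0.44 ± 0.25, and on the other strand UFSP2 overlaps 35.2% of its exons.

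Same-numbered libraries were also compared directly. The log2 difference of 24 h from 0 h had the same sign in all 3 pairs for 33 of the 41 genes (54% of all tested genes did so), and at 8 h for 8 of 41 (19.3% of all tested genes). The pair differences were nearly equal for HK2 (0.37, 0.39 and 0.41 for numbers 1, 2 and 3) and spread widely for PFKFB3 (1.0, 0.28 and 0.47) and SLC2A1 (-0.59, -0.92 and -1.12). They differed in sign for HIF1A, at 0.53, -0.05 and -0.19.

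Since a CPM grows with transcript length, levels of different genes were compared as CPM per kilobase of annotated exon. At 0 h GAPDH led with 2649 ± 487 CPM per kilobase (mean ± SD, n = 3), followed by ENO1 (514 ± 148), PKM (509 ± 61.4), TPI1 (387 ± 98.4) and LDHA (278 ± 27.7). ENO1 and PKM do not differ beyond their spread. The order depends on the length used: with the longest annotated transcript in place of all exons, PKM (1447 ± 174) stood above ENO1 (1065 ± 307) and LDHA (715 ± 71.1) above TPI1 (592 ± 151). HIF1A, at 93.1 ± 19.8, was close to PGK1 (101 ± 13.7) and above every other HIF gene, of which P4HA1 came next at 25.8 ± 3.21 (with the longest transcript P4HA2 did, at 36.7 ± 3.77 against 28.1 ± 3.5 for P4HA1). EPAS1 (0.690 ± 0.265), CA12 (0.209 ± 0.0465) and EGLN3 (0.0826 ± 0.0223) were at the bottom.

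**Figure D4:**
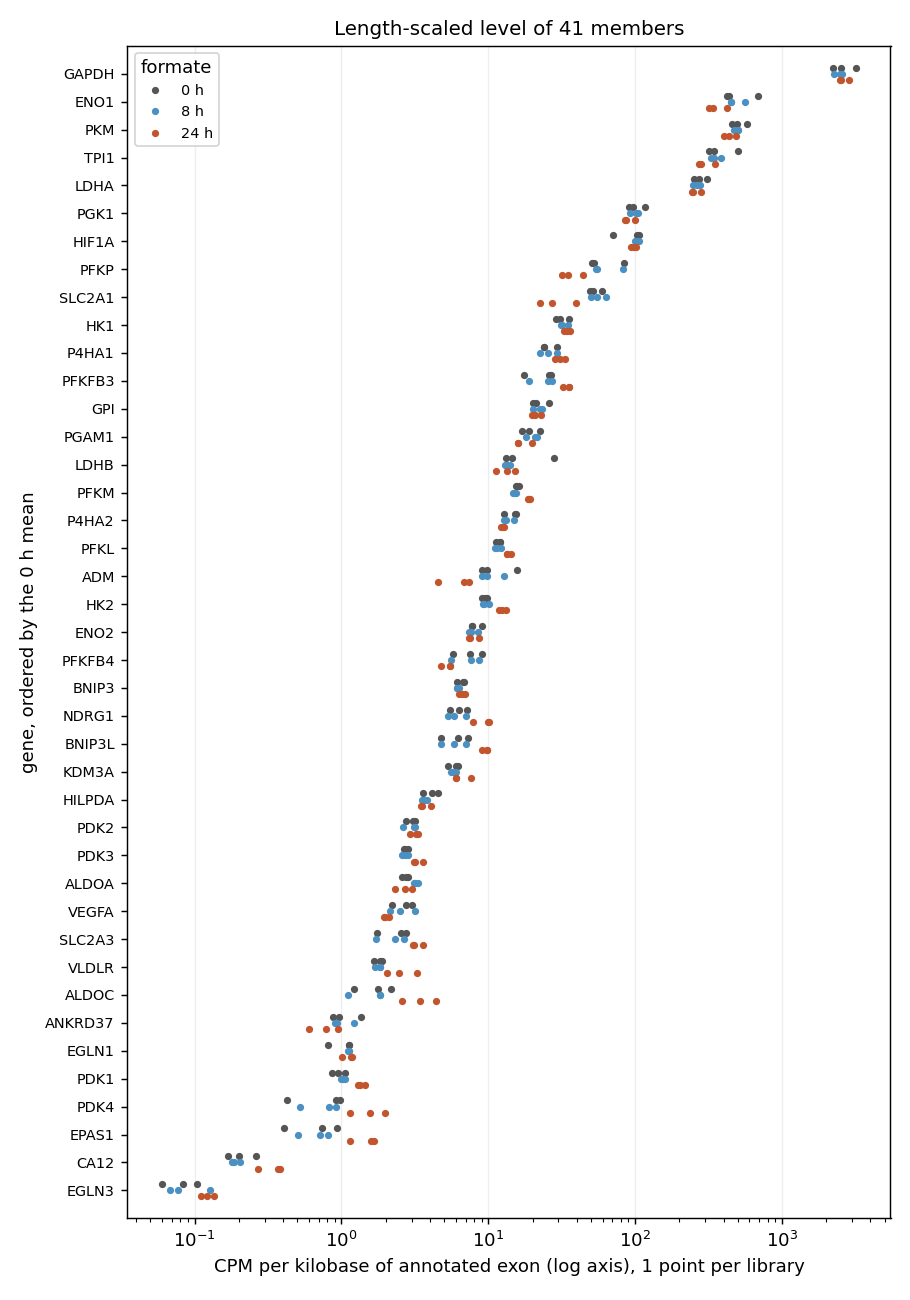
CPM per kilobase of annotated exon (log axis) for the 41 tested genes, ordered by their 0 h mean, with 1 point per library and colours for hours of formate. Levels run from EGLN3 (0.0826 at 0 h) to GAPDH, and for most genes the 3 groups lie close together compared with the distance between genes.

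Within families of isoforms, the leading gene's share of the summed CPM per kilobase was followed over the times. SLC2A1 made up 95.7% ± 1.25 of the 2 carriers at 0 h and 89.6% ± 3.26 at 24 h. PFKP made up 68.5% ± 5.80 of the phosphofructokinase subunits at 0 h, 69.9% ± 5.28 at 8 h and 52.7% ± 4.78 at 24 h, with every 24 h library under the others. PFKFB3 held 75.3% ± 8.38 of its pair at 0 h and 86.8% ± 0.290 at 24 h. ALDOA had the smaller share of the aldolases in replicates 2 and 3 of 24 h (40.2% and 41%) and the larger in the other 7 libraries (54.3% to 69.4% at 0 h), with the uncertainty of its counts given above. ENO1 (98.4% and 97.9%), LDHA (93.9% and 95.1%) and HIF1A (99.3% and 98.5%) made up nearly all of their families at 0 h and 24 h, so EPAS1 was a small part of the alpha subunit mRNA at both times. HK1 held 76.9% ± 2.49 and 73.4% ± 1.97 of the hexokinase pair, EGLN1 92.4% and 90.1% of the hydroxylase pair, and PDK2 40.0% and 33.7% of the 4 PDK genes. PDK2 led in 7 of the 9 libraries, and PDK3 stood above it in replicate 1 of 8 h and of 24 h. On the opposite strand SAMD14 overlaps 38.6% of the PDK2 exons, so its share is uncertain. Of the prolyl hydroxylase pair P4HA1 held 64.0% and 70.9%, although P4HA2 leads when the longest transcript is used as the length. CA12 held 83.4% ± 21.3 of the carbonic anhydrase pair at 0 h and 94.0% ± 5.80 at 24 h. Since CA9 was at or near the floor, this share carries no information. No test was run on these shares.

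**Figure D5:**
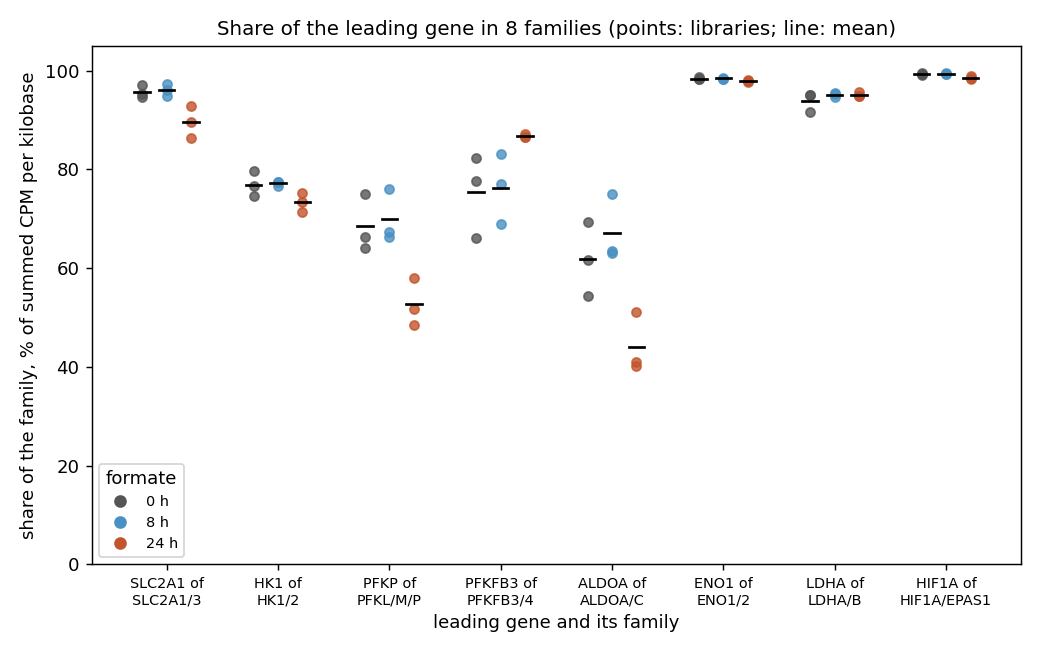
Share of the leading gene in 8 isoform families, as a percentage of the family's summed CPM per kilobase (y axis from 0), with 1 point per library, the mean as a line and colours for hours of formate. The mean of PFKP is 68.5% at 0 h and 52.7% at 24 h and that of PFKFB3 is 75.3% and 86.8%, while ENO1 and HIF1A lie near the top in every library.

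At 8 h of formate no change was detected in any of the 41 genes. None had an adjusted p under 0.05 by edgeR (0% of all tested genes did, and none by DESeq2), none had an unadjusted p under 0.05 (0.517% of all tested genes did), and the smallest adjusted p was 0.99985. Log2 changes ran from -0.47 for LDHB, whose untreated replicate 1 was high, to 0.23 for ALDOA, with a median standard error of 0.14. ALDOA was the only one of the 41 whose 8 h libraries did not overlap those of 0 h (3.31% of all tested genes did not). With the block none passed either, and LDHB alone had an unadjusted p under 0.05 (1.01% of all tested genes did). Taken as fractions, the shares of 0.517% and 1.01% lie far under the fraction of 0.05 that would pass with no effect, so the test was strict here. The lack of calls at 8 h does not show that these genes stayed level.

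A direct comparison of 24 h with 8 h tests whether the 2 times differ. By edgeR, 7 of the 41 genes passed (17.1%), beside 4.56% of all tested genes (2.84% higher and 1.72% lower): SLC2A1 was lower at 24 h, and HK2, PFKM, ALDOC, EPAS1, BNIP3L and NDRG1 were higher. This comparison shares its 24 h libraries with that against 0 h, so the 2 are not independent. SLC2A1 differed by -0.91 ± 0.18 (adjusted p 0.025), HK2 by 0.37 ± 0.09 (adjusted p 0.0411) and PFKM by 0.33 ± 0.08 (adjusted p 0.0458). ALDOC differed by 1.12 ± 0.27 (adjusted p 0.0396) and EPAS1 by 1.12 ± 0.28 (adjusted p 0.0458). For BNIP3L the difference was 0.70 ± 0.17 (adjusted p 0.0409) and for NDRG1 0.61 ± 0.14 (adjusted p 0.0382). For all 7 genes the libraries of 24 h and 8 h did not overlap, which also held for 34.3% of all tested genes. Leaving out replicate 1 or 3 of 8 h, or 2 or 3 of 24 h, took the count to 0, and in these fits 0 to 53 genes of the whole table passed. Leaving out untreated replicate 3 or the second 8 h library took it to 2 (518 and 372 of all genes), untreated replicate 2 to 4 (563), the first 24 h library to 8 (1049) and untreated replicate 1 to 16 (2545), beside 696 of all genes with no library left out.

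Other genes of the same pathways came from 3 lists. Of 27 tested genes of glycolysis and of pyruvate and lactate handling, none passed at 24 h against 0 h without the block, 8 had an unadjusted p under 0.05 (29.6%, beside 26.4% of all tested genes), DESeq2 called 1 (3.85% of those it gave an adjusted p, beside 10.9%), and 5 passed with the block (18.5%, beside 24.1%), 3 higher and 2 lower. These shares are near or below those of all tested genes. The smallest p belonged to PFKFB2, the heart-type relative of PFKFB3 (log2 change 0.57 ± 0.17, adjusted p 0.0805 and 0.0118 with the block), PDP1, the phosphatase that opposes the PDK kinases (-0.44 ± 0.15, adjusted p 0.109 and 0.0296), ADPGK, an ADP-dependent glucokinase (-0.30 ± 0.11, adjusted p 0.125 and 0.0144), and the monocarboxylate carrier SLC16A7 (0.57 ± 0.21, adjusted p 0.132 and 0.0389). Of 19 tested regulators of HIF, 2 passed without the block (beside 4.25% of all tested genes) and 7 with it (36.8%, beside 24.1%), 4 higher and 3 lower. ARNT2, a neural partner of the alpha subunits, rose from 28.0, 44.3 and 38.1 CPM to 67.4, 64.6 and 64.2 CPM (0.83 ± 0.15, adjusted p 0.0253). The chaperone gene HSP90AA1, whose protein stabilises HIF1A, fell by 0.84 on the log2 scale (SE 0.16, adjusted p 0.0268), from 4204, 3389 and 2979 CPM to 2213, 1946 and 1748 CPM. CITED2, which competes with HIF for its coactivators, and ELOC, a subunit of the VHL ligase, passed only with the block, at adjusted p-values of 0.0306 and 0.0481, and their changes without it were 0.37 ± 0.13 and -0.37 ± 0.15.

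Of 39 further tested HIF targets, 4 passed without the block (10.3%, beside 4.25% of all tested genes) and 10 with it (25.6%, beside 24.1%), 7 higher and 3 lower. STC2, a secreted glycoprotein, fell from 79.7, 49.1 and 47.8 CPM to 21.3, 14.3 and 7.74 CPM (-2.03 ± 0.35, adjusted p 0.0199). The transcriptional repressor genes BHLHE40 (0.52 ± 0.13, adjusted p 0.0425) and MXI1 (0.77 ± 0.19, adjusted p 0.0437) rose. The share with the block is near that of all tested genes, and the list's median log2 change was 0.05, beside 0.01 over all tested genes.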

How the data were processed

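Messenger RNA of 9 LN229 libraries was prepared with a stranded kit, per the labels' protocols. The authors deposited 1 table of raw counts for 23727 Ensembl genes. STAR 2.7.4a, bcl2fastq 2.20.0.422 and GRCh38 are named in the submitters' processing notes; the counting program, its annotation and its strand setting are not given in the sources used here. Every column was mapped to a sample by time and replicate number, and 0 columns were left over. Ensembl identifiers were given symbols from a reference table, and coordinates and exon lengths from GENCODE release 29 on GRCh38.

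After filterByExpr had removed genes of low count (15273 left), libraries were scaled with TMM. The edgeR model (version 4.0.16, R 4.3.3) had a mean for each group over all 9 libraries, and each comparison used the two-sided quasi-likelihood test with Benjamini-Hochberg adjustment over all tested genes and a threshold of 0.05. The code was tested on simulated data. DESeq2 1.42.0, its size factors in edgeR, no filter, the replicate block and fits without single libraries were alternatives. The numbers in the titles were taken to pair libraries where the deviations from the group means correlated above 0.1 for every same-numbered pair: r was 0.367, 0.164 and 0.251 between 0 h and 24 h and 0.476, 0.432 and 0.414 between 0 h and 8 h. Replicate 2 of 24 h correlated more with replicate 3 of 0 h (r 0.270) than with replicate 2 of 0 h. The pairing of 0 h with 24 h is thus uncertain, and the calls with the block rest on it. The block was fitted over all 9 libraries, although 8 h and 24 h did not meet the rule. The members and lists were chosen with earlier results of these data known. Values in every library are given for members that passed in any comparison and for members of isoform families, and from each further list up to 4 genes are named, those of smallest p for 24 h over 0 h. A gene that met this rule is not reported here.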

Additional observations from a re-analysis of the deposited data

Results flagged for a closer look

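The levels at 8 h and at 24 h of formate differed for 7 of the 41 genes (17.1%, beside 4.56% of all tested genes) when the 2 times were compared directly with edgeR's quasi-likelihood test. Leaving out replicate 1 or 3 of 8 h, or 2 or 3 of 24 h, took the count to 0. Formate and time in culture cannot be told apart in this difference. On the log2 scale, 24 h minus 8 h, the glucose carrier gene SLC2A1 stood at -0.91, HK2 at 0.37, PFKM at 0.33, ALDOC at 1.12, EPAS1 at 1.12, BNIP3L at 0.70 and NDRG1 at 0.61. Against 0 h, the fitted 8 h change of these genes was 0.07 for SLC2A1, 0.02 for HK2, -0.07 for PFKM, -0.12 for ALDOC, -0.03 for EPAS1, -0.06 for BNIP3L and -0.05 for NDRG1.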

How the results depend on the processing

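At 8 h against 0 h, 0 of the 41 genes passed in every setting run. At 24 h against 0 h, 3 passed as reported and 3 with DESeq2's size factors. The count was 19 with the replicate block, 13 with DESeq2's Wald test, 9 with no filter on low counts (beside 3.77% of all tested genes), 15 without the 3 libraries numbered 1, 0 with only the 2 groups compared, and 15 with the replicate block and only the 2 groups compared, a setting chosen after seeing the data. Leaving out 1 library gave 0 to 8 without the block (0% to 5.76% of all tested genes) and 15 to 21 with it (the counts between were 16, 17, 18 and 20). In these blocked fits 14.2% to 24.5% of all tested genes passed. Of the 19 genes called with the block, 14 passed in all 9 blocked fits (the others were PFKM, TPI1, VEGFA, CA12 and VLDLR). At 24 h against 8 h, 7 passed as reported, 6 with DESeq2's size factors and 6 with no filter on low counts (beside 4.30% and 3.70% of all tested genes in these last 2). In that comparison 17 passed with the replicate block, 14 with DESeq2's Wald test, 17 without the libraries numbered 1, 14 with only the 2 groups compared and 22 with that and the block. Leaving out 1 library gave 0 to 16 there without the block and 9 to 24 with it (between them 11, 12, 14, 15, 16, 17 and 18). Of all tested genes, 0% to 16.3% passed in these fits without the block and 7.57% to 34.8% with it. The numbers did not meet the rule for pairing between these 2 times, since r was 0.423, 0.0367 and 0.404, so the blocked count is a hint only. Over all tested genes, 24 h against 0 h gave 649 calls, 3687 with the block, 1594 with DESeq2, 2616 without the libraries numbered 1 and 124 with only the 2 groups compared, and 24 h against 8 h gave 696, 3130, 1447, 3072 and 1787 in the same settings. With the block and only the 2 groups compared, these totals were 1900 and 4810. At 24 h, none of the 19 genes called with the block changed direction in any setting, while genes near 0 did without the libraries numbered 1 (GAPDH 0.07, HIF1A -0.12, KDM3A -0.01). The cause of these differences was not tested. Depth limits CA9 (10 counts in all) and EGLN3 (0.442 to 0.994 CPM).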
